A study of Mus musculus with 3 samples.

Results

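The cells described here are tumour neutrophils that carried at least 3 UMIs in sum of 5 genes: Cxcl3, Hilpda, Hcar2, F10 and Cd274. A UMI, or unique molecular identifier, counts 1 captured transcript. They were 895 of the 4008 barcodes that passed a neutrophil gate, and of 14226 barcodes kept from 3 single-cell RNA libraries. Replicate 1 held 325 of them, replicate 2 held 257 and replicate 3 held 313. The study placed cells of 2208L, a mouse mammary tumour line, in the mammary gland and took the tumours 4 weeks later, at a diameter of 0.7 to 1 cm. From these it sorted leukocytes as CD45-positive cells that exclude the dye DAPI. All 3 libraries carry 1 set of labels, so there is no untreated or healthy group. The labels give no strain, sex or age of the mice, name the cell type as tumor, and do not say whether the libraries came from separate animals, so p-values measure only the spread between these samples.

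Members were thus chosen by measured UMIs; the gate and the rule used 19 genes. A barcode passed the gate when S100a8 and S100a9, the calprotectin subunits, made up at least 1% of its UMIs, when it held no Cd3d, Cd3e, Cd3g or Epcam UMI, and when it held at most 1 UMI of C1qa, C1qb and C1qc. A member also held under 3 UMIs of Retnlg, Lrg1, Wfdc21, Ifitm6 and Mcemp1, genes of blood neutrophils called the Retnlg set below. The other gated barcodes were split by the same thresholds. The Retnlg-set-low others (1893) failed only on the 5 marker genes. The Retnlg-set-high others (1220) held 3 or more UMIs of the Retnlg set, and 500 of them (41.0%) also held 3 or more marker UMIs. All 19 genes were left out of the tests and of the library totals, and their values are description.

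Neutrophils are short-lived phagocytes that leave the bone marrow, circulate in blood and enter inflamed or tumour tissue, where their gene expression changes. Low oxygen stabilises the transcription factor HIF-1, which raises genes of glucose uptake, glycolysis and blood vessel growth and lowers the use of mitochondria. Hilpda is a known target of HIF-1: its protein sits on lipid droplets and inhibits the lipase that breaks down stored triglyceride. Hcar2 is a receptor for hydroxy acids such as beta-hydroxybutyrate and for niacin. Cxcl3 is a neutrophil-attracting chemokine, F10 encodes coagulation factor X, and Cd274 encodes PD-L1, the ligand of the T-cell checkpoint receptor PD-1.

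Members made up 30.5% of the gated barcodes in replicate 1 with a 95% exact binomial interval of 27.7 to 33.3. The share was 17.2% (15.3 to 19.2) in replicate 2. In replicate 3 it was 21.7% (19.6 to 23.9). The intervals do not overlap and cover counting error only; the mean was 23.1% ± 6.76 (SD, n = 3 libraries). With each barcode thinned to 600 UMIs before the thresholds were applied, the mean share was 23.7%. Cells of 1 library are not replicates, and no test was made of the share.

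The 5 genes contributed unequally. Hilpda was detected in 87.8% of members and gave 50.7% of their marker UMIs, and Hcar2 was detected in 82.5% and gave 24.4%. Both together were found in 640 members (71.5%). Cd274 was detected in 44.1%, Cxcl3 in 24.7% and F10 in 22.5%. Cxcl3, which stands first in the working name of these cells, was thus absent from most of them at this depth. Its detection ran from 15.2% to 32.3% of members over the libraries, and its level was 2013, 696 and 1803 CPM in replicates 1, 2 and 3, where CPM is the number of UMIs per 1000000 UMIs of the members. Hilpda stood at 5498, 4798 and 5152 CPM, a narrower range.

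Free RNA gives UMIs in cells that do not express a gene. For comparison, 3267 barcodes were taken with at least 2 UMIs of the T-cell genes Cd3d, Cd3e and Cd3g and under 1% S100a8 and S100a9. Whether T cells make the 5 transcripts themselves was not tested, so these shares do not measure free RNA alone. In these Cd3 barcodes Hilpda was detected in 18.3%, Cd274 in 5.97%, Hcar2 in 3.40%, F10 in 1.13% and Cxcl3 in 0.643%. Their median depth was 1574 UMIs, against 1108 in members. The Retnlg-set-low others showed Hilpda in 10.7% and Hcar2 in 12.1%, at a median of 817 UMIs. The rule holds these others under 3 marker UMIs and the Cd3 barcodes are deeper and not so limited, so the shares are given side by side only. Of the members, 90 held exactly 3 marker UMIs and 139 Retnlg-set-low others held 2, so these barcodes lie next to the threshold; the median of all members was 10.

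**Figure D1:**
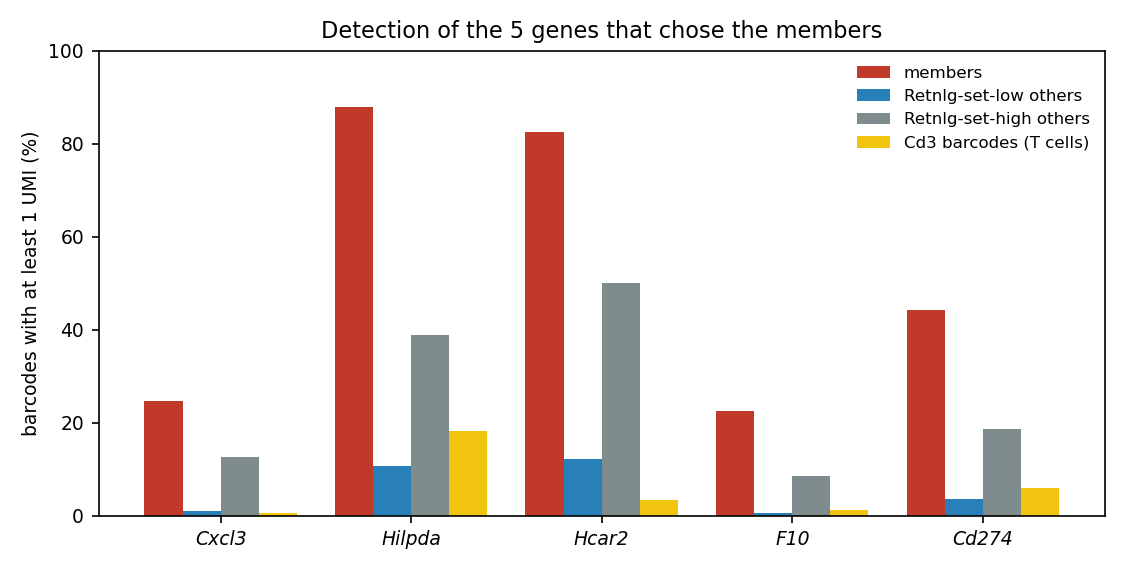
Percent of barcodes with at least 1 UMI of each gene that chose the members (y axis), in members, both classes of other neutrophils and Cd3 barcodes. Hilpda and Hcar2 were found in over 80% of members, and Cxcl3 in 24.7%; these genes chose the members, so the difference from the other neutrophils is not a finding.

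The members carried neutrophil markers beyond the gate. All 10 on the list were detected: S100a8 and S100a9, which the gate used, and Csf3r, Cxcr2, G0s2, Il1r2, Hdc, Clec4d, Mmp9 and Ly6g, which it did not. The 8 that the gate did not use summed to 10674, 11608 and 10830 CPM in members and 14788, 15526 and 13942 CPM in all other gated barcodes. All 10, whose sum the gate in part fixes, stood at 53544, 58444 and 61875 CPM against 94205, 92495 and 96354. Markers of other cells were low. Of 8 macrophage markers 8 were detected, summing to 712, 508 and 380 CPM in members against 839, 779 and 437 in the others. Of 8 dendritic cell markers 5 were detected, at 842, 368 and 310 CPM against 373, 678 and 140, with Xcr1, Cd209a and Siglech at 0 in members. All 8 T-cell markers were detected, at 19.3 to 47.7 CPM in members and 26.5 to 83.8 in the others. The 7 epithelial markers stood at 49.3 to 55.0 CPM in members and 61.1 to 128 in the others, with Krt5, Krt14 and Krt19 at 0 in both. In members 6 of 6 monocyte, 3 of 6 natural killer, 1 of 6 B-cell, 1 of 7 mast cell or basophil, 2 of 6 eosinophil and 3 of 7 stromal markers were detected. Monocyte markers summed to 108 to 143 CPM and each of the other 5 lists to at most 37.5 CPM, with Prf1, Cd79a, Prg2, Epx and Dcn at 0. At least 2 UMIs of such markers were found in 27.9% of members, 20.1% of Retnlg-set-low others and 31.1% of Retnlg-set-high others; their part in the results was not tested beyond leaving these barcodes out.

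Member sums held 363609, 293254 and 426034 UMIs, out of library totals of 9846404, 15259236 and 9445914. Median depth per barcode was 1026, 1004 and 1261 UMIs in members, 737, 766 and 947 in Retnlg-set-low others and 1136.5, 1054.5 and 1347.5 in Retnlg-set-high others. The ribosomal protein share of UMIs also differed between the classes: its median was 4.77%, 5.10% and 5.0% in members, 9.49%, 8.99% and 9.44% in Retnlg-set-low others and 3.93%, 4.35% and 3.89% in Retnlg-set-high others. Pairs of libraries shared 29, 25 and 37 barcode sequences, of which 0, 1 and 1 belonged to members in both.

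Counts were summed per library and class, and members were first compared with all other gated neutrophils by edgeR's quasi-likelihood test. The library was a blocking term, and p-values were adjusted over all genes by the method of Benjamini and Hochberg. Members showed higher glycolysis and hypoxia genes, ferritin, heme oxygenase, lipid-handling genes, stress regulators and the chemokines Ccl3, Ccl6 and Cxcl2, and lower Il1b, Cxcr2, Gpx1 and several genes of blood neutrophils. The others include the Retnlg-set-high class, chosen for blood neutrophil genes, so the lower blood neutrophil genes in part follow from the rule. Of 4379 genes tested, 1657 (37.8%) passed an adjusted p of 0.05, 987 higher (22.5%) and 670 lower (15.3%) in members. That split depends on scaling. Scaling here used TMM, which assumes that most genes do not change; with library totals alone the split was 593 higher and 1737 lower, and the median of all genes moved from -0.01 to -0.41 on the log2 scale. With DESeq2 it was 601 higher and 242 lower. Levels below are CPM of the summed UMIs without the 19 genes and without TMM, and fold changes carry TMM.

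The hypoxia and glycolysis list had the highest share of genes called higher among the lists. Members were chosen by marker UMIs, and Hilpda, a known target of HIF-1, gave 50.7% of those. A gene that follows Hilpda would be higher through this choice, so the calls on this list are description and no separate support. Of its 36 genes 35 were tested, 32 were higher in members (91.4%, against 22.5% of all genes), 1 was lower and 2 did not pass, with a median log2 difference of 1.46 against -0.01 over all genes. Over all alternatives the number higher was 29 to 33. With library totals 29 were higher and the median was 1.05. A gene can meet the count filter through the member sums alone, and then had to differ: among all genes tested 176 did so, 126 of them called higher, and on this list it was Adm alone. Without it 31 of 34 were higher. A gene can also meet the filter through the sums of the others alone, and how many of the lower calls came that way was not counted. For every list below, counts against all others are to be read beside 22.5% higher and 15.3% lower over all genes.

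Adm encodes adrenomedullin, a vasodilator peptide (chr7:110627661-110629820, plus strand, GRCm38). It stood at 192, 119 and 133 CPM in members and 57.8, 12.8 and 22.0 CPM in the others. Each member value lay above every other-neutrophil value, and the log2 difference was 2.75 (SE 0.23, adjusted p = 5.12e-10). Ero1l, an oxidase of the endoplasmic reticulum that forms disulfide bonds, read 1353, 1532 and 1604 CPM against 441, 373 and 413 (log2 2.27, SE 0.09, adjusted p = 2.56e-16). Hk2, hexokinase 2, which traps glucose in the cell, read 1207, 1334 and 1161 CPM against 379, 385 and 388 (log2 2.07). The groups did not overlap for either gene. Ldha, which turns pyruvate into lactate, read 3465, 3936 and 4366 CPM against 1675, 1439 and 1609 (log2 1.70). Mif, a cytokine gene that HIF-1 also raises, read 5228, 5500 and 5377 CPM against 2714, 2848 and 2717 (log2 1.35). Both were higher in every library.

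Glucose entry and the steps of glycolysis moved in 1 direction. The glucose transporters Slc2a1 (log2 1.24) and Slc2a3 (0.78), and Pfkl (1.81), Pfkp (1.49), Aldoa (1.16), Tpi1 (1.58), Gapdh (0.98), Pgk1 (1.09), Pgam1 (1.23), Eno1 (1.21) and Pkm (0.85) were all higher in members. So was Pdk1 (1.95), which holds pyruvate out of the mitochondrial cycle, and Slc16a3 (1.04), which exports lactate. Vegfa, the vascular growth factor, read 111, 152 and 90.1 CPM against 27.4, 36.7 and 40.004 (log2 2.09, SE 0.22, adjusted p = 2.23e-08). The mitophagy receptors Bnip3 (1.78) and Bnip3l (1.46) and the oxygen sensor Egln3 (1.74) were also higher. Pfkfb4 was the exception, at 23.3, 32.5 and 15.0 CPM against 48.7, 57.2 and 53.3 (log2 -0.83, adjusted p = 0.032), while its paralogue Pfkfb3 was higher (1.38). Hk1 (0.60, adjusted p = 0.089) and Mxi1 (0.38, adjusted p = 0.19) did not pass.

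**Figure D2:**
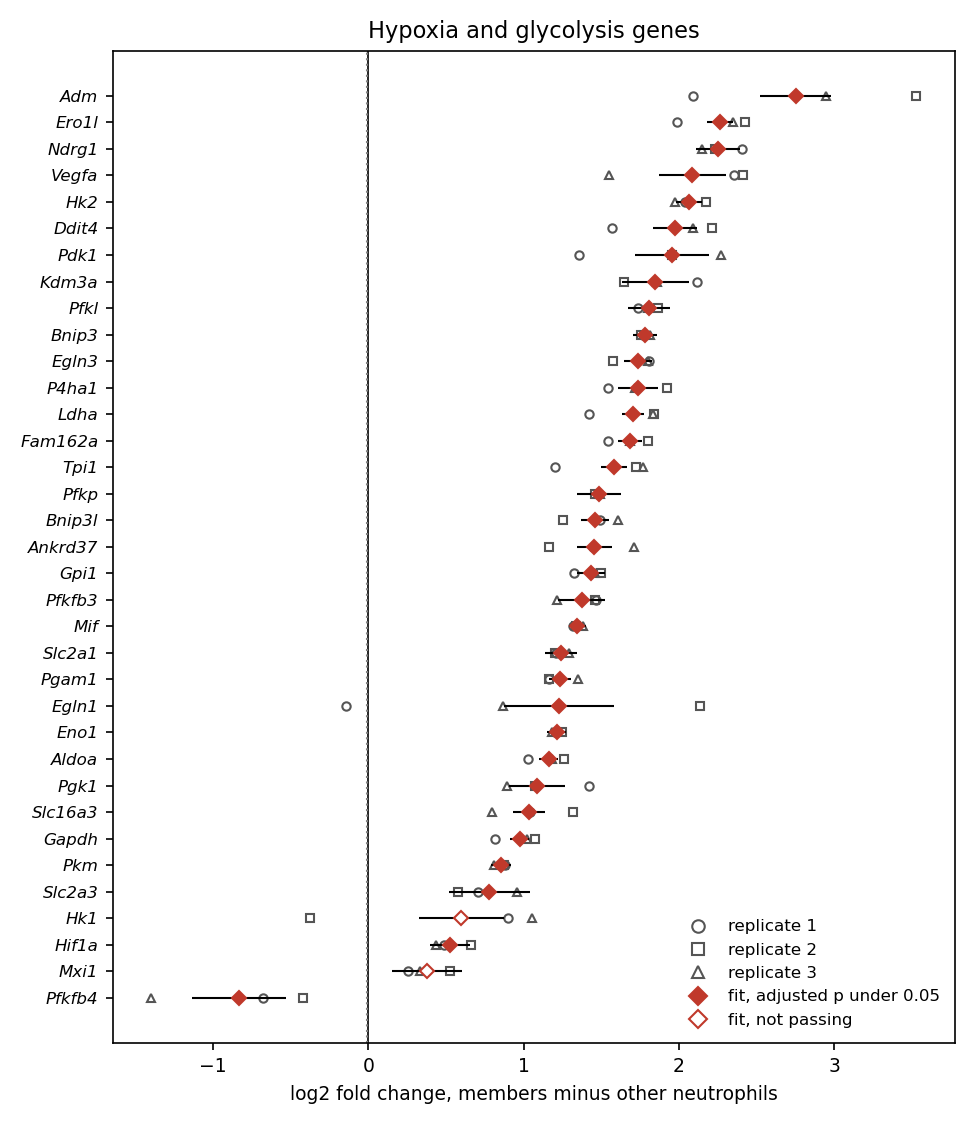
Log2 fold change of each tested hypoxia and glycolysis gene, members minus other neutrophils (x axis); diamonds are the fit with its standard error, open symbols the 3 libraries, and the dotted line the median of all genes. Filled diamonds passed an adjusted p of 0.05: 32 lie above 0 and Pfkfb4 below it, and Egln1 is the called gene with a library on the other side.

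The promoters of Hilpda and of 3 genes of this list described above are shown because HIF-1 binds short ACGTG and GCGTG cores. Each window runs from 250 bases before to 50 bases after a start site, from RefSeq on GRCm38.p6, written 5′ to 3′ on the gene's strand; capitals mark ACGTG or GCGTG on either strand. Hilpda and Vegfa each have 2 listed start sites, and the window with more matches is printed for each. They are Hilpda (chr6:29272376-29272675, plus, 3 matches, against 1 in the other window), Adm (chr7:110627407-110627706, plus, 2), Ero1l (chr14:45318523-45318822, minus, 3) and Vegfa (chr17:46025114-46025413, minus, 2, against 0 in the other window). The printed Vegfa window lies downstream of the other one (chr17:46032328-46032627). Its 2 matches may thus stand in transcribed, coding sequence of the gene, and the upstream window of Vegfa held none.
Hilpda: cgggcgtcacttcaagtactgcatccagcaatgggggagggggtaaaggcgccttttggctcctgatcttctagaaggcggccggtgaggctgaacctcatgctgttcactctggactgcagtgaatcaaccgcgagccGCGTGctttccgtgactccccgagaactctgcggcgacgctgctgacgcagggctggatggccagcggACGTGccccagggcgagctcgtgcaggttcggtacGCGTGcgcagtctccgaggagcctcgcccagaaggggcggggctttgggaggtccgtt
Adm: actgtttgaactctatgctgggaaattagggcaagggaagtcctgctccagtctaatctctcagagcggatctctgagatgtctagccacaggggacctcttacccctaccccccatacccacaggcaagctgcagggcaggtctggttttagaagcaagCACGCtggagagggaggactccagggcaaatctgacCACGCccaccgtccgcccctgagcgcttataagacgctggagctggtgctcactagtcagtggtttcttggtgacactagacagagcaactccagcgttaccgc
Ero1l: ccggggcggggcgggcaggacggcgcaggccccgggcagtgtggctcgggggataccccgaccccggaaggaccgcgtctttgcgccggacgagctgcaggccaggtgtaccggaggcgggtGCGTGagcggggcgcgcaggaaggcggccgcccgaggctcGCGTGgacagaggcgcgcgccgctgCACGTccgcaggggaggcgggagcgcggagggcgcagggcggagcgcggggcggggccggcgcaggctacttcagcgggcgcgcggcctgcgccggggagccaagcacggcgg
Vegfa: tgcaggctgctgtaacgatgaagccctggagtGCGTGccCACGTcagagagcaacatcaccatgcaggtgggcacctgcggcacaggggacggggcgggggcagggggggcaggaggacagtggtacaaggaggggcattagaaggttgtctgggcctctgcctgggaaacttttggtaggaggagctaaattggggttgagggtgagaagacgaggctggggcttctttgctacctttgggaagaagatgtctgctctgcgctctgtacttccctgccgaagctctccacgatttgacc
Such short cores are common. At least 1 stood in 43.8% of all 32851 promoter windows, in 64.0% of those of the genes tested, in 66.3% of those higher in members and in 59.2% of those lower. Of the 35 tested list genes 32 had an entry, and 36 of their 46 windows (78.3%) held a core. A match is a description of the letters and not a binding site.

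Within the Retnlg-set-low neutrophils, members included, the list was read at each level of the marker genes. Those genes chose the members, and Hilpda, a known target of HIF-1, gave 50.7% of the marker UMIs of members. A rise of the list along them is thus description and no separate support. With every barcode thinned to 600 UMIs, those with 0 marker UMIs held on average 8.52, 8.55 and 8.96 UMIs of the list in replicates 1, 2 and 3. The mean was 11.7, 11.5 and 12.7 at 1 to 2 marker UMIs, 16.6, 18.8 and 19.99 at 3 to 5, and 20.7, 25.8 and 24.8 at 6 to 11. At 12 or more it was 25.2, 27.4 and 28.3, over 49, 24 and 56 barcodes. The means were thus higher at each step in all 3 libraries, below the threshold of 3 marker UMIs as well as above it; no test was made. Ribosomal protein UMIs went the other way, from 59.5, 57.1 and 55.9 to 25.4, 29.2 and 26.3. Per barcode the spread was wide: the median member held 18.5, 20 and 23 list UMIs, and the lowest 10% of members held 6.9, 9 and 8 or fewer, near the median of 7 in the Retnlg-set-low others of each library.

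**Figure D3:**
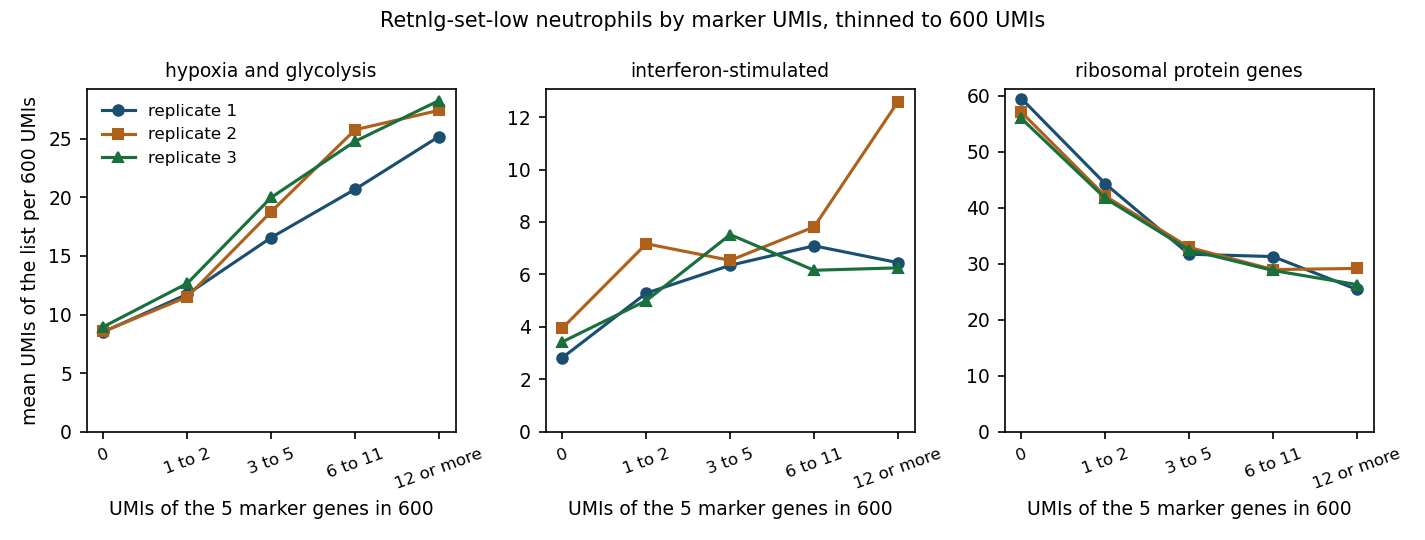
Mean UMIs of each gene list per 600 UMIs (y axes, from 0) in Retnlg-set-low neutrophils, by the number of marker UMIs among the 600 (x axis), 1 line per library. The marker genes chose the members, so the trends are description. The hypoxia list runs from 8.52 at the lowest to 28.3 at the highest and ribosomal protein genes decline; the interferon list has 1 high point, 12.6 in replicate 2, over 24 barcodes.

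Of the iron storage and antioxidant genes 11 of 18 tested were higher and 1 lower (median 0.80), or 10 and 5 with library totals (median 0.39). Srxn1 and Tfrc met the filter through the member sums alone, and without them 9 of 16 were higher. Fth1, the heavy chain of ferritin, made up 7.06%, 7.80% and 7.505% of member UMIs. It made up 1.66%, 1.58% and 1.28% in Retnlg-set-low others and 5.53%, 3.95% and 4.73% in Retnlg-set-high others, so the 3 classes did not overlap. Ftl1, the light chain, followed with 3.86%, 4.13% and 3.97% against 1.38%, 1.46% and 1.18% and 2.74%, 2.31% and 2.41%. Against all others the log2 differences were 1.70 (SE 0.06) for Fth1 and 1.48 (SE 0.05) for Ftl1, both with an adjusted p of 3.81e-17. Ferritin has processed pseudogenes, so some of these counts could be split by the counting. Hmox1, heme oxygenase 1, which frees iron from heme, read 788, 867 and 876 CPM against 250, 235 and 295 (log2 2.09, adjusted p = 5.17e-15). Gpx1, a peroxidase, was lower at 486, 604 and 420 CPM against 1135, 1448 and 1138 (log2 -0.92, adjusted p = 1.60e-09), while Prdx6 (1.16), Sqstm1 (1.22) and Srxn1 (1.53) were higher.

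Lipid-handling genes were higher in 8 of 13 tested cases and lower in 0 (median 0.71). Fabp5, a fatty acid carrier, read 591, 535 and 598 CPM in members against 143, 166 and 143 (log2 2.32, SE 0.11, adjusted p = 2.37e-14). Plin2, a coat protein of lipid droplets, read 1184, 1052 and 1158 CPM against 460, 338 and 465 (log2 1.82). Soat1, which esterifies cholesterol, read 311, 351 and 273 CPM against 123, 128 and 109 (log2 1.76). No library's member value fell in the range of the others for these 3 genes. The lipase gene Pnpla2, whose protein Hilpda inhibits, was higher by 0.68 (adjusted p = 0.0030), and G0s2, which encodes another inhibitor of it, did not pass (-0.05, adjusted p = 0.48). With library totals 5 of the 13 were higher and 2 lower.

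Among the chemokines 5 of 9 tested were higher and 1 lower (median 0.77). Ccl9 met the count filter through the member sums alone, and without it 4 of 8 were higher. Ccl3, a chemokine that binds Ccr1, read 11669, 8167 and 11119 CPM against 5663, 3692 and 5353 (log2 1.47, SE 0.05, adjusted p = 8.31e-17). Cxcl2, a neutrophil attractant like Cxcl3, read 31992, 20736 and 25396 CPM against 19740, 10147 and 13748 (log2 1.26). Ccl6 read 1370, 791 and 1434 CPM against 554, 279 and 358 (log2 2.01). Member values lay above all others for these 3 genes, with replicate 2 lowest in every case. Ccl4 (0.77, adjusted p = 2.12e-11) passed with overlapping CPM ranges. Ccl5 was lower (-0.80, adjusted p = 0.0031), and Cxcl1 (0.24, adjusted p = 0.49) and Cxcl10 (0.17, adjusted p = 0.27) did not pass. Cxcr2, the receptor for Cxcl2 and Cxcl3, was lower at 198, 220 and 200 CPM against 438, 619 and 567 (log2 -1.003, SE 0.11, adjusted p = 1.05e-07). Of 15 receptors tested 6 were higher and 2 lower (median -0.06, against -0.01 over all genes). With library totals 4 were higher and 8 lower (median -0.47). Cxcr1 met the count filter through the member sums alone, and without it 5 of 14 were higher. Ccrl2 (1.01) and the platelet-activating factor receptor Ptafr (1.10) were higher.

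The NF-kB and cytokine list was mixed, with 12 of 24 higher and 4 lower. Its median was 0.38 with TMM and -0.03 with library totals, where 6 were higher and 6 lower. Il1rn, the IL-1 receptor antagonist, read 4012, 2685 and 3325 CPM against 1867, 1340 and 1504 (log2 1.47, SE 0.06, adjusted p = 8.36e-16). Il1b, which encodes the cytokine that this antagonist blocks, was lower, at 7535, 8858 and 9801 CPM against 15054, 16157 and 20357 (log2 -0.59, SE 0.05, adjusted p = 6.79e-10). The 2 genes thus differed in opposite directions in all 3 libraries. Il1b overlaps the antisense gene Il1bos, and whether the counting used strand is not given in the sources used here. Icam1, the adhesion molecule in the study's title, read 125, 181 and 110 CPM in members against 126, 143 and 136 and did not pass (log2 0.40, SE 0.16, adjusted p = 0.053).

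Of the checkpoint and T-cell suppression list 10 of 18 tested genes were higher and 1 lower (median 0.52; 6 and 6 with library totals, median 0.12). Pdcd1lg2, which encodes PD-L2 (chr19:29410919-29471161, plus strand), read 207, 152 and 140 CPM in members against 50.2, 34.2 and 20.4 (log2 2.68, SE 0.19, adjusted p = 2.90e-11). It begins 22823 bases past the end of Cd274, a gene of the rule, on the same strand. Plgrkt, which lies 64 bases from Cd274 on the opposite strand, was also higher (log2 2.51, SE 0.14, adjusted p = 1.65e-13). Fam71f2 had the highest fold change of the named genes, with 111, 108 and 57.5 CPM against 12.2, 17.1 and 4.71 (log2 3.39, SE 0.27, adjusted p = 2.28e-10). It met the count filter through the member sums alone, so its difference is in part set by that filter. It lies 4146 bases past the end of Hilpda on the same strand (chr6:29279593-29290680). Whether reads from the rule genes reach these neighbours was not tested. Cd24a (1.30), Lgals9 (1.15), Arg2 (1.03) and Nos2 (1.65) were higher too, and Wfdc17 was lower (-0.60). Nos2 met the count filter through the member sums alone, and without it 9 of 17 genes of this list were higher.

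Coagulation genes beyond F10 were few at this depth: 5 of 22 were tested and 4 were higher (median 1.72). Of these F2rl2 met the count filter through the member sums alone, and without it 3 of 4 were higher. With library totals 3 of 5 were higher and 1 lower. F3, tissue factor, the starter of the clotting cascade that activates factor X, read 128, 72.3 and 128 CPM against 32.0, 21.3 and 37.6 (log2 2.21, SE 0.21, adjusted p = 4.09e-09). Plau, the urokinase plasminogen activator, read 90.2, 61.4 and 72.6 CPM against 35.0, 32.4 and 22.7 (log2 1.72). F2rl2, a thrombin receptor, read 20.4, 47.0 and 50.04 CPM against 9.13, 9.39 and 14.9 (log2 2.20). The groups did not overlap for these 3 genes. F2rl2 lies within Iqgap2 on the other strand. Plaur, the receptor of Plau, passed (0.56) with overlapping CPM ranges and did not pass with library totals (0.16, adjusted p = 0.31).

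Stress genes were higher in 20 of 28 tested cases and lower in 0 (median 0.76). Ddit3, also called CHOP, a factor of the unfolded protein response, read 1097, 1207 and 1146 CPM against 545, 417 and 459 (log2 1.68, SE 0.09, adjusted p = 1.21e-13). Its upstream regulator Atf4 read 660, 665 and 793 CPM against 316, 281 and 335 (log2 1.57). Hspa5, the chaperone BiP, read 617, 513 and 728 CPM against 250, 231 and 303 (log2 1.63). All 3 genes were separated in every library. Atf3 (1.64), Gadd45b (1.68) and Ier3 (1.19) were higher, and the immediate early genes Fosb (-0.31), Junb (-0.09) and Ier2 (-0.07) did not pass. With library totals 16 were higher and 7 lower.

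Interferon-stimulated genes were higher in 16 of 20 tested cases and lower in 0 (median 0.69), or 9 and 1 with library totals. Rsad2, the antiviral enzyme viperin, read 2138, 2327 and 2067 CPM against 876, 779 and 1020 (log2 1.67, SE 0.08, adjusted p = 1.69e-14). Isg15 read 4390, 6180 and 4526 CPM against 2930, 4371 and 3874 (log2 0.82). Usp18 (1.37) and Ifit3 (1.24) were higher, while Irf1 (-0.38, adjusted p = 0.10) did not pass. Of 18 survival and death genes 8 were higher and 1 lower (median 0.32), and with library totals 3 were higher and 6 lower (median -0.09). Bax, which promotes cell death, read 497, 444 and 470 CPM against 382, 257 and 293 (log2 1.00), and Bcl2l1, which opposes it, read 224, 228 and 245 against 151, 121 and 149 (log2 1.12).

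Genes reported for tumour-infiltrating neutrophils went both ways, with 11 of 18 higher and 4 lower (median 0.65), or 8 and 6 with library totals (median 0.25). Cstb, a cathepsin inhibitor, read 5728, 5540 and 5270 CPM against 2568, 1993 and 2194 (log2 1.68), and Lgals3, galectin 3, read 2022, 1753 and 1977 against 994, 731 and 715 (log2 1.64). Ctsb (1.19), Ninj1 (1.15), Tnfrsf23 (1.25) and Zeb2 (1.97) were also higher. The lower genes included Siglecf (-0.90), Ltc4s (-1.47) and Ptgs1 (-1.84). Ltc4s, which makes leukotriene C4, read 102, 47.0 and 70.1 CPM in members, 504, 335 and 485 in Retnlg-set-low others and 49.7, 61.4 and 57.3 in Retnlg-set-high others. Its members thus overlapped the Retnlg-set-high class and lay below the Retnlg-set-low one. Of 6 growth factor and protease genes tested 2 were higher, Hbegf (1.43, with overlapping CPM) and Timp2 (1.04), and Mmp9 was lower (-0.46; list median -0.06).

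**Figure D4:**
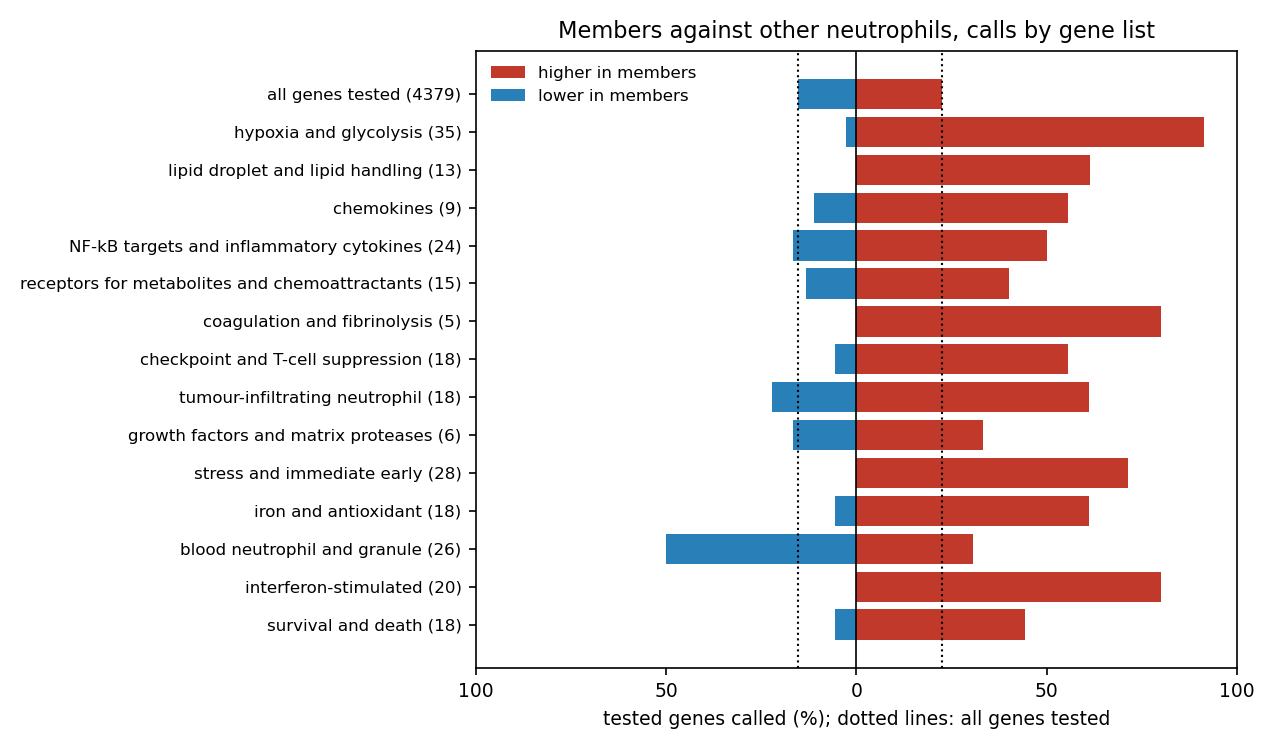
Percent of the tested genes of each list called higher (red, right) or lower (blue, left) in members than in other neutrophils at an adjusted p of 0.05; the number tested is in brackets and dotted lines mark all genes. Hypoxia, coagulation (4 of 5 genes) and interferon lists reach 80% or more higher, and 13 of 26 genes of the blood neutrophil list were lower. Members were chosen for few UMIs of the Retnlg set, which bears on the blood neutrophil list.

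Outside the lists, the highest named fold changes after Fam71f2 were in Ciart, Stard4, Nceh1, Ccdc126, Mreg, Itpr2, Echdc3, Rragd and Rab15, with log2 differences of 2.67 to 2.996. Ciart, a repressor of the circadian clock, read 335, 408 and 335 CPM against 89.8, 42.7 and 52.6 (SE 0.17, adjusted p = 5.34e-13). Stard4 and Nceh1 act on cholesterol, the first as a carrier and the second as an ester hydrolase; Stard4 read 64.0, 57.8 and 100.1 CPM against 22.8, 6.83 and 14.9. Ccdc126 read 399, 437 and 430 CPM against 62.4, 74.3 and 100.4, and Itpr2, a calcium release channel, 314, 463 and 413 against 88.2, 82.0 and 69.8. All of these were separated in every library. Stard4, Nceh1 and Rab15, like Fam71f2, met the count filter through the member sums alone, so their differences are in part set by that filter. Ciart, Echdc3 and Rab15 overlap a gene on the other strand. The lowest were Rab27a (log2 -2.50), Acaa1a (-1.99), Tmem147, BC037034, Ptgs1, Maf1, Irak4, Sfxn5, Hip1, Ccnd3, Tmem123 and Pi16 (-1.60). In every member sum Rab27a, Acaa1a, BC037034, Irak4, Hip1 and Tmem123 read below 18.9 CPM, the level of the count filter. They met it through the sums of the others alone, so their differences are in part set by that filter. Rab27a, a small GTPase of granule release, read 0, 7.23 and 10.0 CPM in members against 30.4, 41.8 and 58.8. Maf1, a repressor of RNA polymerase III, read 17.5, 28.9 and 22.5 against 105, 91.4 and 108, and Ccnd3, cyclin D3, 32.0, 43.4 and 27.5 against 134, 123 and 151.

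Splitting the other neutrophils showed where members stood between them. Against the Retnlg-set-low others, 2098 of 4216 tested genes passed (49.8%), 1022 higher (24.2%) and 1076 lower (25.5%); with library totals it was 636 and 2140, and with DESeq2 844 and 464. Against the Retnlg-set-high others 1121 passed (26.6%), 577 higher (13.7%) and 544 lower (12.9%). The majority turned with library totals, to 500 higher and 642 lower, and without replicate 2, to 371 and 489. Both comparisons share the member sums, so their values are given side by side. The hypoxia list had 33 of 35 higher and 0 lower (median 1.90, all genes -0.12) against the first, and 26 higher and 1 lower (median 0.80, all genes 0.03) against the second.

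Most leading genes were ordered, with members highest and Retnlg-set-low others lowest. The rule itself holds marker UMIs low in the low class and does not limit them in the high class. A gene that follows the markers would take the same order, so the order is description. Ciart stood at 26.6, 18.8 and 19.6 CPM in the low class and 174, 66.5 and 88.5 in the high class, with log2 differences of members of 4.51 (SE 0.24) and 1.90 (SE 0.19). Fabp5 stood at 39.97, 41.1 and 39.1 CPM and at 280, 290 and 256, with differences of 4.29 and 1.14. Adm differed by 4.52 and 1.58, Ero1l by 3.53 and 1.24, Hmox1 by 3.29 and 1.08, F3 by 3.43 and 1.19 and Pdcd1lg2 by 3.86 and 1.68. Each of these differences had an adjusted p below 0.05 and non-overlapping CPM in both comparisons. Mif and Ccl3 kept the member level apart from both classes by like amounts, 1.39 and 1.06 for Mif and 1.32 and 1.42 for Ccl3. For Ccl4 the difference from the low class was 0.49 with TMM and -0.0040 with library totals (adjusted p = 0.97).

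Another set of genes passed against the low class and did not pass against the high class. Mxd1, a differentiation factor, read 1175, 1232 and 1093 CPM in members, 352, 450 and 310 in the low class and 1394, 1328 and 1362 in the high class (2.12, adjusted p = 4.00e-19, and -0.16, adjusted p = 0.30). Prok2, a secreted peptide of granulocytes, read 471, 763 and 646 CPM in members, 79.9, 6.84 and 22.6 in the low class and 692, 523 and 544 in the high class (4.79, and 0.18, adjusted p = 0.50). Nfkbia (1.78 and 0.12), Arg2 (1.89 and 0.16), Nos2 (3.86 and 0.43), Isg15 (1.30 and 0.15) and Mcl1 (1.00 and -0.18) passed against the low class and did not pass against the high class. Without the 500 Retnlg-set-high barcodes that hold 3 or more marker UMIs, an alternative chosen after seeing the data, the difference from the high class passed for Nfkbia (0.66, adjusted p = 7.25e-06), Arg2 (0.49, adjusted p = 0.0077), Isg15 (0.37, adjusted p = 0.0056), Prok2 (1.11, adjusted p = 0.0010) and Nos2 (1.93, adjusted p = 0.0023). Mcl1 passed with library totals (-0.25, adjusted p = 0.045) and without replicate 2 (-0.36, adjusted p = 0.015). Mxd1 passed without replicate 2 (-0.31, adjusted p = 0.039), at 2 or more marker UMIs (-0.29, adjusted p = 0.044) and in barcodes of 800 to 2000 UMIs (-0.31, adjusted p = 0.029). A p that misses the threshold does not show equal levels, and the 2 differences were not tested against each other. Of the interferon list 16 genes were higher against the low class, and 5 were higher and 1 lower against the high class.

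The blood neutrophil and granule list had 8 of 26 genes higher and 13 lower against all others (median -0.45), or 5 and 16 with library totals (median -0.86). Against the low class 13 of 26 were higher and 4 lower (median 0.54), but with library totals 11 were higher and 9 lower (median 0.05). Against the high class 1 was higher and 17 lower (1 and 19 with library totals). Members were chosen for few UMIs of the Retnlg set. This bears on the comparison with the high class and on that with all others, which include the high class. Lcn2 was higher than in the low class (1.32) and lower than in the high class (-1.54), as was Wfdc17 (1.03 and -1.74). Hp, haptoglobin, read 215, 347 and 263 CPM in members, 405, 506 and 450 in the low class and 1138, 1488 and 1496 in the high class (-0.27, adjusted p = 0.080, and -2.27, adjusted p = 3.79e-18). S100a11 did not pass against the low class (-0.03, adjusted p = 0.87) and was lower than in the high class (-1.87). Cxcr2 was lower than in both (-0.41 and -1.74), as was Il1b (-0.43 and -0.99). The exception on the list was Ltf, lactoferrin, at 96.0, 72.3 and 82.6 CPM in members, 48.0, 53.0 and 51.2 in the low class and 49.7, 25.6 and 41.0 in the high class, which was higher in both (1.15 and 1.22).

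**Figure D5:**
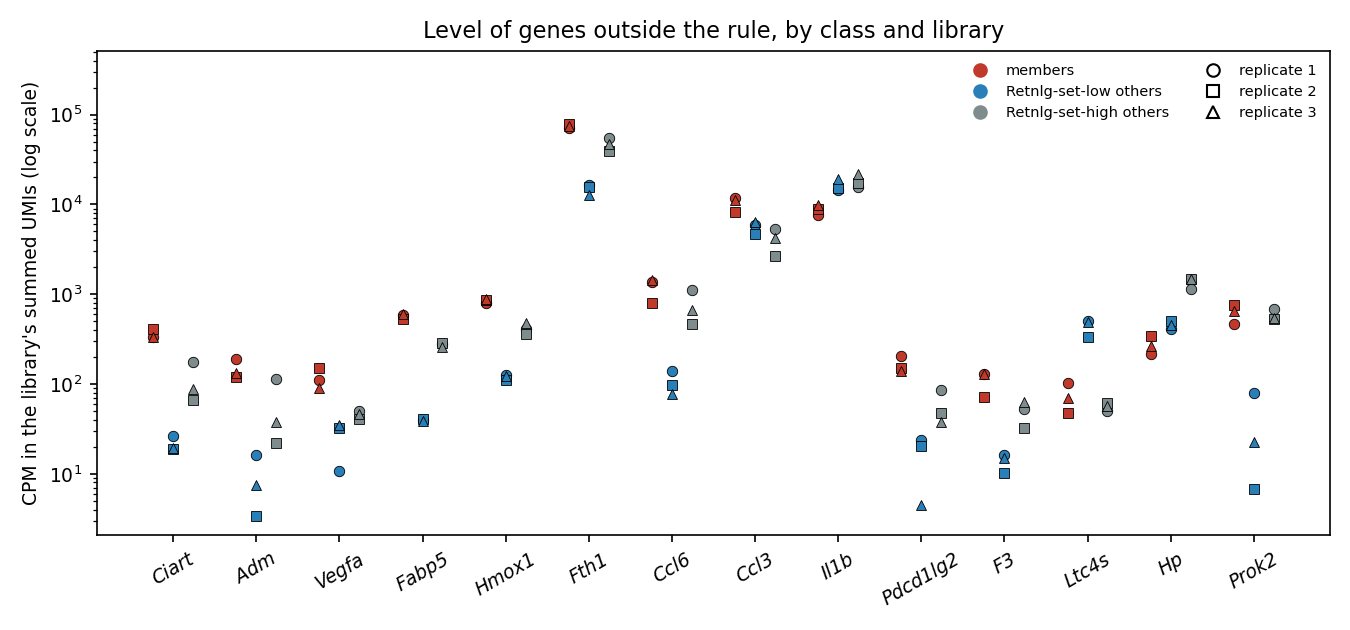
CPM of 14 genes that the rule did not use (log y axis) in members, Retnlg-set-low others and Retnlg-set-high others; each symbol is 1 library. Members stand highest for Ciart, Adm and Fabp5, beside the Retnlg-set-high class for Prok2 and Ltc4s, and lowest for Il1b.

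Ribosomal protein genes were lower than in the low class: 46 of 83 tested were lower and 8 higher. Against the high class 3 were lower and 12 higher. Over all genes 25.5% were lower and 24.2% higher against the low class, and 12.9% and 13.7% against the high class. The number higher than in the high class is thus near the share over all genes. With library totals the first became 74 lower and 1 higher, and the second 4 lower and 8 higher. These moved with the ribosomal share per barcode given above, and their part in the other results was not tested.

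Members were also split by the rule's own genes Hilpda and Cxcl3. In 697 of them Hilpda had more UMIs than Cxcl3 (249, 203 and 245 by library), in 108 Cxcl3 had more (53, 14 and 41), and 90 were tied. A gene that follows Hilpda or Cxcl3 would differ between these groups through the split itself, so the calls are description. Of 1603 genes tested between the Hilpda-led and Cxcl3-led members 9 passed (0.561%), 4 higher (0.25%) and 5 lower (0.312%) in the Hilpda-led. The count rested on replicate 1, without which it was 0; it was 11 without replicate 2 and 6 without replicate 3.

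Higher in the Hilpda-led members were Mt1, a metallothionein, Adm, Ciart and Gadd45b. Mt1 read 1199, 286 and 927 CPM against 37.1, 64.8 and 262.5 (log2 2.74, SE 0.42, adjusted p = 0.0028). Adm rested on 147 UMIs against 3, a ratio of 7.21 with a 95% exact counting interval of 2.42 to 35.4 (adjusted p = 0.040 by edgeR). Ciart read 390, 452 and 381 CPM against 92.9, 194.5 and 121 (log2 1.67). Lower were the chemokines Ccl6 and Cxcl2 with Mgst1, Cd14 and the predicted gene Gm5483, which is named here after its values were seen because the rule for named genes leaves predicted genes out. Adm and Mt1 met the count filter through the Hilpda-led sums and Mgst1 through the Cxcl3-led sums. The differences of Adm, Mt1 and Mgst1 are thus in part set by that filter. Ccl6 read 1159, 676 and 1145 CPM against 2637, 2010 and 2604 (log2 -1.31, SE 0.18, adjusted p = 0.0010). Cxcl2 read 27799, 19764 and 23686 CPM against 49164, 39165 and 40741 (log2 -0.88, SE 0.13, adjusted p = 0.0024). CPM of the 2 groups did not overlap for any of these genes with values by library. Of 30 hypoxia genes tested 1, Adm, was called (median 0.15 against 0.03 over all genes).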

How the data were processed

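The authors deposited UMI counts per gene and barcode, unnormalised, for 3 libraries (28692 genes). The mm10 build, Cell Ranger and Seurat are named, with no version, per the submitters' processing notes. Per the file headers the matrices carry software version 3.0.0. A 5′ platform and a 3′ protocol both stand in the labels, so the captured end is not settled. A barcode was kept if it had 200 or more genes and no more than 10% mitochondrial UMIs (14226 of 14336). No doublet caller was run; the gate and an alternative without barcodes with 2 or more UMIs of other cell types' markers were used in its place.

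The members and lists were chosen with earlier results of these data known, so no list is independent evidence. UMIs were summed per library and class, and tested with edgeR 4.0.16 in R 4.3.3 (limma 3.58.1, filterByExpr, TMM, quasi-likelihood, Benjamini-Hochberg at 0.05). Each library gives 1 sum per class, and this shared library is the source of the pairing and of the library block. DESeq2 1.42.0 was an alternative. Members were compared with all other gated barcodes, and in a joint fit with each of the 2 other classes; Hilpda-led members were compared with Cxcl3-led ones, with ties left out. Genes named were the 12 highest and 12 lowest fold changes passing the test (6 and 6 among members) with a mean log2 CPM of at least 5 and 1 direction in every library, without gate, predicted, ribosomal and mitochondrial genes, and the 4 called genes with the lowest p of each of 14 lists; further list genes named as examples were picked after their values were seen. On simulated data, 48% of genes changed by 1 on the log2 scale and 95% of those changed by 2 were recovered for members against all others, and 32% and 76% for Hilpda-led against Cxcl3-led members. The simulation gave every gene the same dispersion, had no library effect and raised as many genes as it lowered. Its rates are thus not the power of the real comparisons. Positions are from GENCODE M21 on GRCm38, and promoter windows are from RefSeq. Depth limits rare genes: 34 members held under 600 UMIs and were left out of thinned values. Python 3.11.15, numpy 2.4.6, scipy 1.17.1, pandas 2.3.3 and matplotlib 3.10.9 were used. Values of some list genes are not reported here.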

Additional observations from a re-analysis of the deposited data

How the results depend on the processing

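The comparison of members against other neutrophils called 1657 genes, and between 1314 and 2330 under scaling by totals, no filter on low counts, thinning, a window of 800 to 2000 UMIs, or another marker threshold. It called 843 with DESeq2, 962 with a limit of 500 genes and 5% mitochondrial UMIs, and 1099 to 1505 with 1 library left out, lowest without replicate 3. For members against Retnlg-set-low others the count was 2098, with 1308 by DESeq2, 1352 with the 500-gene limit and 1473 to 1902 with 1 library left out. For members against Retnlg-set-high others it was 1121, with 670, 435 and 741 to 992, lowest without replicate 3. For Hilpda-led against Cxcl3-led members it was 9, with 14 without a filter, 23 after thinning to 600 UMIs, 29 in the window of 800 to 2000 UMIs, 2 at 5 or more marker UMIs, 0 with the 500-gene limit and 0 to 11 with 1 library left out. The cause of these changes was not tested; the 500-gene limit leaves fewer barcodes.

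Without the replicate block, that is without the pairing of sums by library, the counts were 1389, 1861, 953 and 4. Leaving out the 500 Retnlg-set-high barcodes with 3 or more marker UMIs, an alternative chosen after seeing the data, gave 1866 calls against all others and 1389 against the Retnlg-set-high others. Over all alternatives, named-gene values were compared with the main fit by side of the threshold. Direction was compared only where the main or the alternative value passed. Both were kept in 1149 of 1158 cases against all others and in 1059 of 1082 against the Retnlg-set-low others. The same held in 1059 of 1159 cases against the Retnlg-set-high others and in 63 of 110 among members. Where either value passed, the sign changed in 2 cases: Ccl4 in members against Retnlg-set-low others with library totals (-0.0040, adjusted p = 0.97) and Mmp9 in members against Retnlg-set-high others with the 500-gene limit (0.14, adjusted p = 0.67). Changes of sign where neither value passed were not counted. Among the Cxcl3-led members, replicate 2 held 14 barcodes, which limits that comparison.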

Other observations

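Some list genes were too rare in these sums for a test. Cd36, a fatty acid transporter, had 28 UMIs in members (0, 25 and 3 in replicates 1, 2 and 3) and 0 in all other gated barcodes, so that almost all of them came from 1 library. Denr, which lies 41675 bases from Hcar2 on the opposite strand and encodes a translation re-initiation factor, was higher in members (log2 1.35, SE 0.13, adjusted p = 6.72e-09 by edgeR).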
